A study of Mus musculus with 5 samples.

Results

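Microtubule-associated proteins (MAPs) that bind the polymer, and stathmins, which bind free tubulin, were examined in cultured mouse neural stem/progenitor cells (NSPCs). The members were chosen by symbol. They are Map1a, Map1b, Map2, Map4, Mapt, Stmn1, Stmn2, Stmn3, Mapre1 and Ckap5. Of these 10 genes, 9 are listed, with 31 transcripts out of 22227 and 9 gene sums out of 12588, where a gene sum adds up the normalized counts of the listed transcripts of a symbol. Stmn2, a stathmin of neurons, was not analysed here.

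Libraries were made from NSPCs of C57BL/6J mice and sequenced to ask which genes differ in cells without p75NTR, the p75 neurotrophin receptor encoded by Ngfr. One group is labelled p75NTR+/+, called WT, from litter mates of the knockout, with 2 libraries numbered 1 and 4. The other is labelled p75NTR-/- and has 3 libraries numbered 1, 2 and 4. All 5 cultures were in proliferation medium with 20 ng/ml EGF and 20 ng/ml FGF-2 and had no further treatment. The sample labels give E12.5 embryos, whereas the methods describe adult NSPCs. The study describes independent preparations, but the labels do not say which cultures or animals the libraries came from, so p-values measure the spread between these libraries.

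The targeted gene went against the labels. Under the label WT, Ngfr was at 1 and 2 counts, and under the label p75NTR-/- at 10, 117 and 238 counts. The adjusted p was 0.934 in limma, 0.953 in edgeR and 0.00367 in DESeq2. The study reports p75NTR in cultured adult NSPCs, and why Ngfr was so low under the label WT was not tested. The deposited values do not show whether the reads under the label p75NTR-/- came from the deleted part of the gene. The groups are therefore named here as labelled, and every direction below rests on those labels. Recovered totals were 11688211 to 14452396 counts a library, and 3 counts corresponded to 2.9 to 3.6 normalized counts. The libraries numbered 4 stood apart: 5590 of 12588 gene sums (44.4%) did not overlap between them and the other 3. Of 12 stem and progenitor markers, all were listed and 11 had a mean normalized count of at least 50, with Fabp7, Vim and Nes at 8704 normalized counts or more in each library. The neuronal markers Dcx, Rbfox3 and Syt1 had no line, nor did Ptprc, Cx3cr1, Pecam1 or Cldn5 of immune and vascular cells.

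Microtubules are hollow polymers of α- and β-tubulin that grow and shrink at their ends. Structural MAPs of the MAP1 and MAP2/tau families lie along the lattice and are best known from axons and dendrites, while MAP4 is the widespread relative of MAP2 and tau. Stathmins sequester tubulin dimers and favour shrinkage, the end-binding protein encoded by Mapre1 (EB1) marks growing plus ends, and the protein encoded by Ckap5 (chTOG) adds tubulin to them.

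The proteins of Map2 and Map4 share a carboxy-terminal microtubule-binding domain of imperfect repeats. In both genes a coding exon of 93 bases holds a repeat and can be skipped. It is shown because the isoforms described below divide by it. The sequences are from the GENCODE vM21 transcripts on GRCm38, plus strand, at chr1:66431527-66431619 for Map2 and chr9:110072613-110072705 for Map4. Capitals mark the 59 of 93 bases (63.4%) that are the same in both exons.
Map2: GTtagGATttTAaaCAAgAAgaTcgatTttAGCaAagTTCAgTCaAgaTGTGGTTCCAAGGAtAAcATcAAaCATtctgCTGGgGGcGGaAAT
Map4: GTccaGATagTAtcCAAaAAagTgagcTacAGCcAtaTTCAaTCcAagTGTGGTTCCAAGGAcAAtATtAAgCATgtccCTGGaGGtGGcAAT

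Levels between genes were compared per length, in deposited TPM summed over complete transcript models. These TPM followed the coding length of a model, not its whole length. In WT 1, Mapre1-201 (7336 bases, 804 of them coding) had 4063 normalized counts and 260.8 TPM. Stmn1-201 (1060 bases, 447 of them coding) had 3609 normalized counts and 526.7 TPM there. Of the 31 listed models, 12 are fragments of a transcript, left out here because a short coding length inflates TPM. Stmn1, the ubiquitous stathmin of dividing and immature cells, was the most abundant member, with 502 ± 64.6 TPM (SD, n = 5 libraries). Mapre1 followed with 237 ± 14.7 TPM. Map2 had 149 ± 28.9 TPM and Map4 105 ± 10.5 TPM, and their ranges overlapped. The next 3 genes could not be ordered either. Ckap5 had 49.0 ± 9.34 TPM, Stmn3, a stathmin of neurons, 44.0 ± 10.7 TPM, and Mapt, the tau gene, 42.7 ± 15.3 TPM. The genes of the MAP1 heavy chains were lowest, Map1a with 5.14 ± 1.93 TPM and Map1b with 1.95 ± 0.491 TPM. With the partial models added, Map2 reached 617 to 966 TPM and lay above Stmn1 (415 to 571 TPM). Map2-218, a fragment with a coding length of 106 bases, alone had 423.60 to 671.40 TPM. The place of Map2 in this order thus depended on the models counted.

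**Figure D1:**
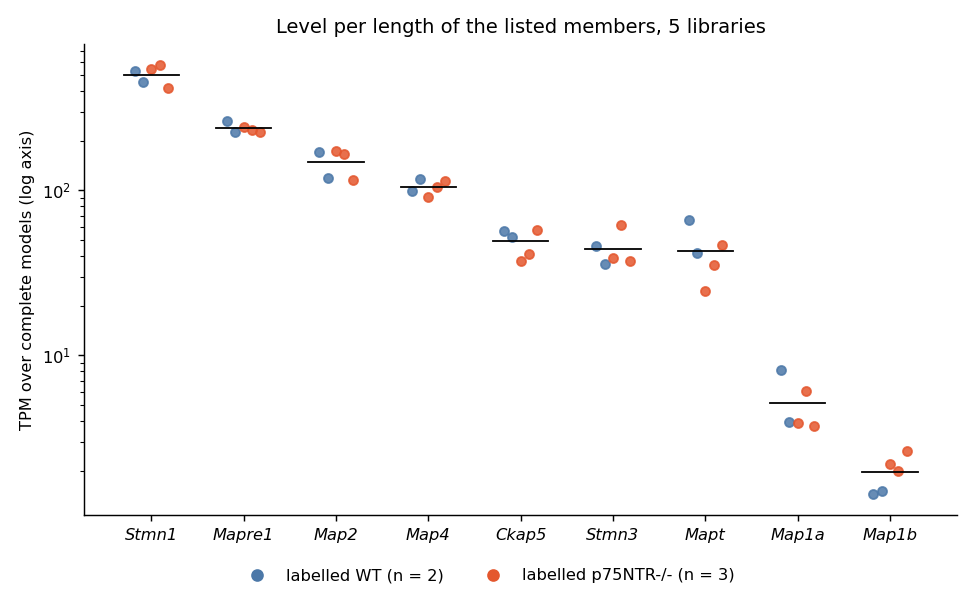
Deposited TPM summed over complete models (log axis) for the 9 listed members, 1 point per library, with a line at the mean of the 5 libraries. Stmn1 and Mapre1 lie above Map2 and Map4, and Map1a and Map1b lie below all others.

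Between the labels, no member was called. A gene was called where its mean reached 50 normalized counts, its fold change reached 1.5 and its adjusted p in limma was under 0.05. The fit covered all 12588 gene sums, of which 1 (0.00794%) was called. All 9 members passed the mean. edgeR called 0 of the 12297 gene sums it tested (260 at an unadjusted p under 0.05) and DESeq2 7 of 12585, no member among them. At an unadjusted p under 0.05, limma had 1 of 9 members against 2.08% of all gene sums. In 1 of 9 members the groups did not overlap, against 15.0% of all gene sums. Of the members, 4 were higher and 5 lower in the libraries labelled p75NTR-/-, with a median log2 difference of -0.06. The median over all gene sums was 0.00.

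Map1b, at chr13:99421446-99516540 on the minus strand of GRCm38, encodes a MAP1 heavy chain of growing axons and migrating neurons. Its gene sum was 258 and 267 normalized counts in the libraries labelled WT, and 387, 348 and 474 in those labelled p75NTR-/-. Each of the latter exceeded both of the former. The log2 difference was 0.60 ± 0.20 (SE), with an unadjusted p of 0.028 and an adjusted p of 0.934 in limma. The unadjusted p was 0.023 in edgeR and 0.018 in DESeq2, with adjusted p of 0.953 and 1.00. Within the libraries numbered 1 the log2 difference was 0.58 and within those numbered 4 it was 0.82. The exact permutation test gave p = 0.1 (two-sided), the smallest that 2 against 3 libraries allow. Its single listed transcript, Map1b-201, has a coding length of 7392 bases. With untranslated bases included it has 11808, of which 9512 are in no other annotated model of the gene. With 257 to 449 counts a library, Map1b had the fewest counts of the members on average.

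Map1a (chr2:121289600-121310832, plus strand), the MAP1 heavy chain of mature neurons, went the other way on average but not by library. Its gene sum was 1601 and 772 normalized counts in the libraries labelled WT and 750, 1163 and 755 in those labelled p75NTR-/-. WT 1 and p75NTR-/- 2 were high and the other 3 libraries low. The log2 difference was -0.35 ± 0.40 (SE, limma adjusted p = 0.934), and without WT 1 it was 0.17. Of its 2 models, Map1a-202 starts inside the gene and lacks coding sequence of Map1a-201. It took 24.5% and 23.7% of the gene's counts in the libraries labelled WT and 22.4%, 28.6% and 0.559% in those labelled p75NTR-/-. In p75NTR-/- 4 it had 4 of 715 counts (95% Wilson interval 0.218% to 1.43%). The coding lengths, which the deposited TPM followed, are 8328 bases for Map1a-202 and 9042 for Map1a-201. With untranslated bases included, 89 of the 10145 bases of Map1a-202 lie outside Map1a-201. Of the 11825 bases of Map1a-201, counted likewise, 1769 lie outside Map1a-202. Wilson intervals here cover counting error only, not the assignment of reads to models.

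Map2 (chr1:66175273-66442583, plus strand) encodes the dendritic MAP. Its gene sum was 9156 and 5537 normalized counts in the libraries labelled WT, and 8892, 8194 and 5401 in those labelled p75NTR-/-. Both libraries numbered 4 were low and the labels overlapped. On the log2 scale the labels differed by 0.04 ± 0.34 (SE), with an adjusted p of 0.991 in limma. The gene has long forms, with a large internal coding exon, known from mature dendrites, and short forms without it, known from developing brain and glia. Map2-204 is the long complete model (coding length 5484 bases) and skips the 93-base exon. Map2-206 is short (coding length 1494 bases) and holds it.

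The long Map2-204 had 3360 and 1343 normalized counts in the libraries labelled WT, and 2882, 2410 and 1195 in those labelled p75NTR-/-. Map2-206 had 4616 and 3451, and 4776, 4642 and 3423. Both models were lowest in the libraries numbered 4, the long one by more. Of the counts of the complete models, the long one took 41.8% and 27.7% in the libraries labelled WT and 37.3%, 34.0% and 25.5% in those labelled p75NTR-/-. The label means were 34.8% ± 9.97 (SD, n = 2) and 32.3% ± 6.11 (SD, n = 3), with p = 0.8 in a two-sided exact permutation test. The mean was 26.6% ± 1.59 (SD, n = 2) in the libraries numbered 4 and 37.7% ± 3.90 (SD, n = 3) in the others, without overlap. Per coding length the long model was a smaller part, 7.72% to 15.0% of the TPM of the complete models. The models with the 93-base exon took 57.3% and 70.5%, and 61.7%, 65.2% and 72.5%, of the counts of the models that span it. Neither Map2-204 nor Map2-206 differed in usage between the labels (adjusted p = 1.00 for both in limma diffSplice).

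**Figure D2:**
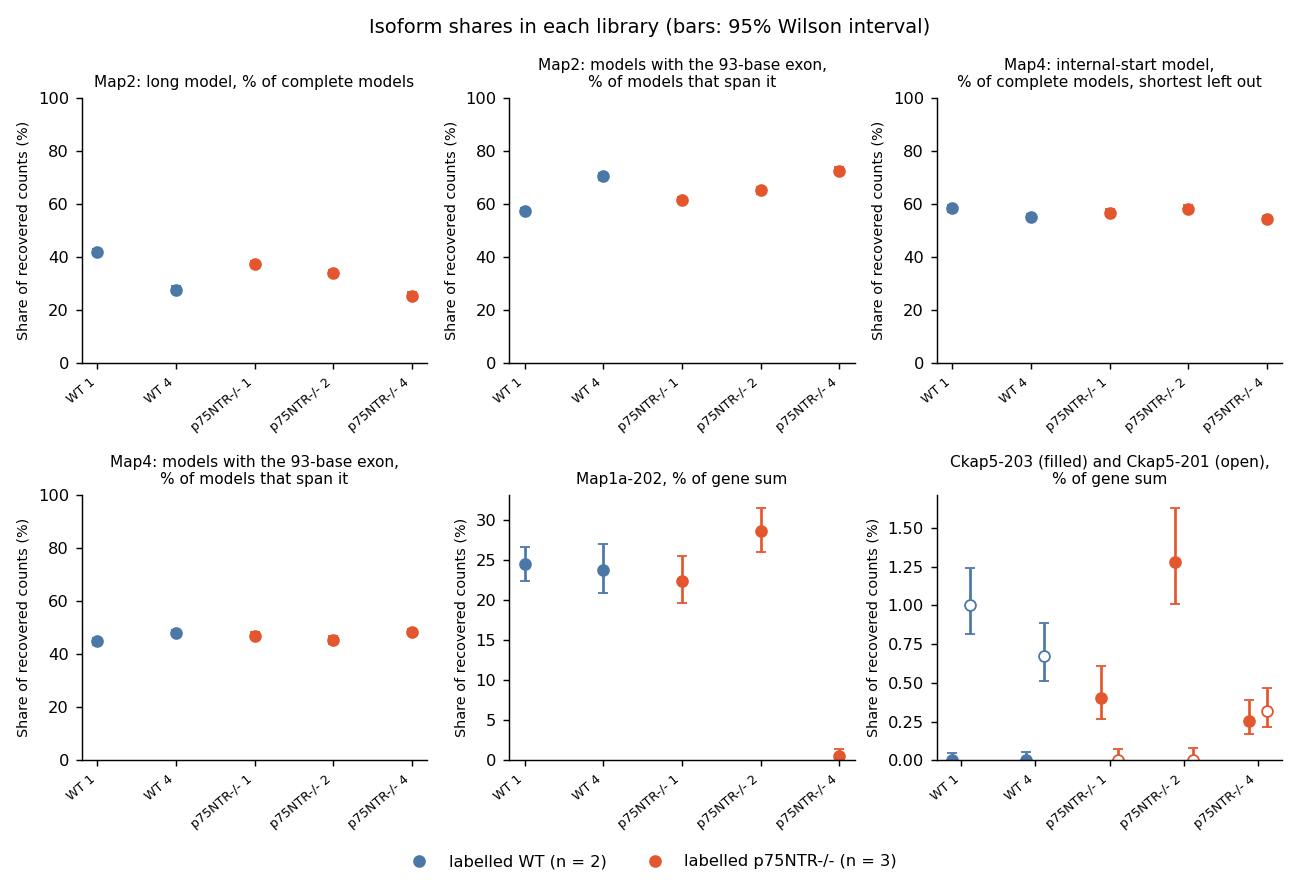
Share of recovered counts (%) by library for isoforms of Map2, Map4, Map1a and Ckap5, with 95% Wilson intervals, which are smaller than the points in the Map2 and Map4 panels. The long Map2 model is lowest in both libraries numbered 4, Map1a-202 is near 0 in p75NTR-/- 4, and Ckap5-203 has counts in the 3 libraries labelled p75NTR-/- and none in those labelled WT.

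Map4 (chr9:109931460-110083955, plus strand) encodes the MAP of dividing and non-neuronal cells. Its gene sum was 6291 and 7460 normalized counts in the libraries labelled WT and 5922, 6213 and 7641 in those labelled p75NTR-/-. Both libraries numbered 4 were high, the opposite of Map2. The log2 difference between the labels was -0.06 ± 0.20 (SE, limma adjusted p = 0.972). Most of its counts were assigned to complete models with different annotated starts. Use of the starts themselves was not measured. Map4-201 begins at the gene's first base, 109931460 on chromosome 9, and holds the 93-base exon, while Map4-214 begins within the gene at 110052052 and skips it. Map4-214 had 58.4% and 55.2% of the counts of Map4-201, Map4-205 and Map4-214 together in the libraries labelled WT and 56.7%, 58.3% and 54.3% in those labelled p75NTR-/-. Map4-206, a complete model with a coding length of 297 bases and 24 to 48 counts a library, was left out of this share. The label means were 56.8% ± 2.28 (SD, n = 2) and 56.4% ± 2.03 (SD, n = 3). The share thus ranged over 54.3% to 58.4%, against 25.5% to 41.8% for the long model of Map2. The models with the 93-base exon took 44.9% to 48.4% of the counts of the models that span it, below the 57.3% to 72.5% of Map2 in every library. These are shares of whole models of unlike length, not of reads over the exon. Per coding length they were 48.6% to 51.8% of the TPM in Map4 and 82.3% to 88.2% in Map2. Map4-205 had 111 counts in p75NTR-/- 2 and 0 in the other 4 libraries. It has no base outside the other listed models.

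Mapt (chr11:104231390-104332090, plus strand) had the widest range of the members, with a highest library at 2.64 times the lowest. Its gene sum was 1431 and 895 normalized counts in the libraries labelled WT and 542, 769 and 1028 in those labelled p75NTR-/-. WT 1 was highest and p75NTR-/- 1 lowest, and p75NTR-/- 4 lay above WT 4. The log2 difference was -0.58 ± 0.36 (SE), with an unadjusted p of 0.165 and an adjusted p of 0.934 in limma. It was -1.40 between the libraries numbered 1 and 0.20 between those numbered 4. Mapt-204, with a coding length of 1116 bases, took 87.4% to 93.4% of the counts. Among 10785 other genes of mean 50 or more, the 3 with a pattern most like that of Mapt over the 5 libraries were Hook1, Rnf144a and Tmcc3. Their centred log2 gene sums differed from those of Mapt by at most 0.09, 0.09 and 0.12 in any library.

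The stathmins did not separate the labels. Stmn1 (chr4:134468320-134473843, plus strand), whose single listed transcript has 1060 bases, had 3609 and 3106 normalized counts in the libraries labelled WT and 3653, 3831 and 2876 in those labelled p75NTR-/-. The labels differed by 0.03 ± 0.21 on the log2 scale (SE, limma adjusted p = 0.986). Stmn3 (chr2:181306459-181314500, minus strand) had 384 and 298, and 321, 506 and 317, with p75NTR-/- 2 highest, and a log2 difference of 0.14 ± 0.29 (SE, limma adjusted p = 0.957). Both stathmins were lower in each library numbered 4 than in each of the others. In all, 4 of 9 members did not overlap between the libraries numbered 4 and the others, Map4 higher and Map2, Stmn1 and Stmn3 lower. This share is like the 44.4% over all gene sums.

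Of the plus-end proteins, Mapre1 (chr2:153741274-153773310, plus strand) varied least of all members. It had 4063 and 3509 normalized counts in the libraries labelled WT and 3702, 3536 and 3544 in those labelled p75NTR-/-, and its highest library was 1.16 times its lowest. The labels differed by -0.07 ± 0.16 on the log2 scale (SE, limma adjusted p = 0.962).

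Ckap5 (chr2:91526762-91620664, plus strand) had 8400 and 7747 normalized counts in the libraries labelled WT and 5409, 5997 and 8663 in those labelled p75NTR-/-. The libraries p75NTR-/- 1 and 2 were low, and p75NTR-/- 4 was the highest of all. The log2 difference was -0.30 ± 0.26 (SE, limma adjusted p = 0.934), -0.63 between the libraries numbered 1 and 0.16 between those numbered 4.

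**Figure D3:**
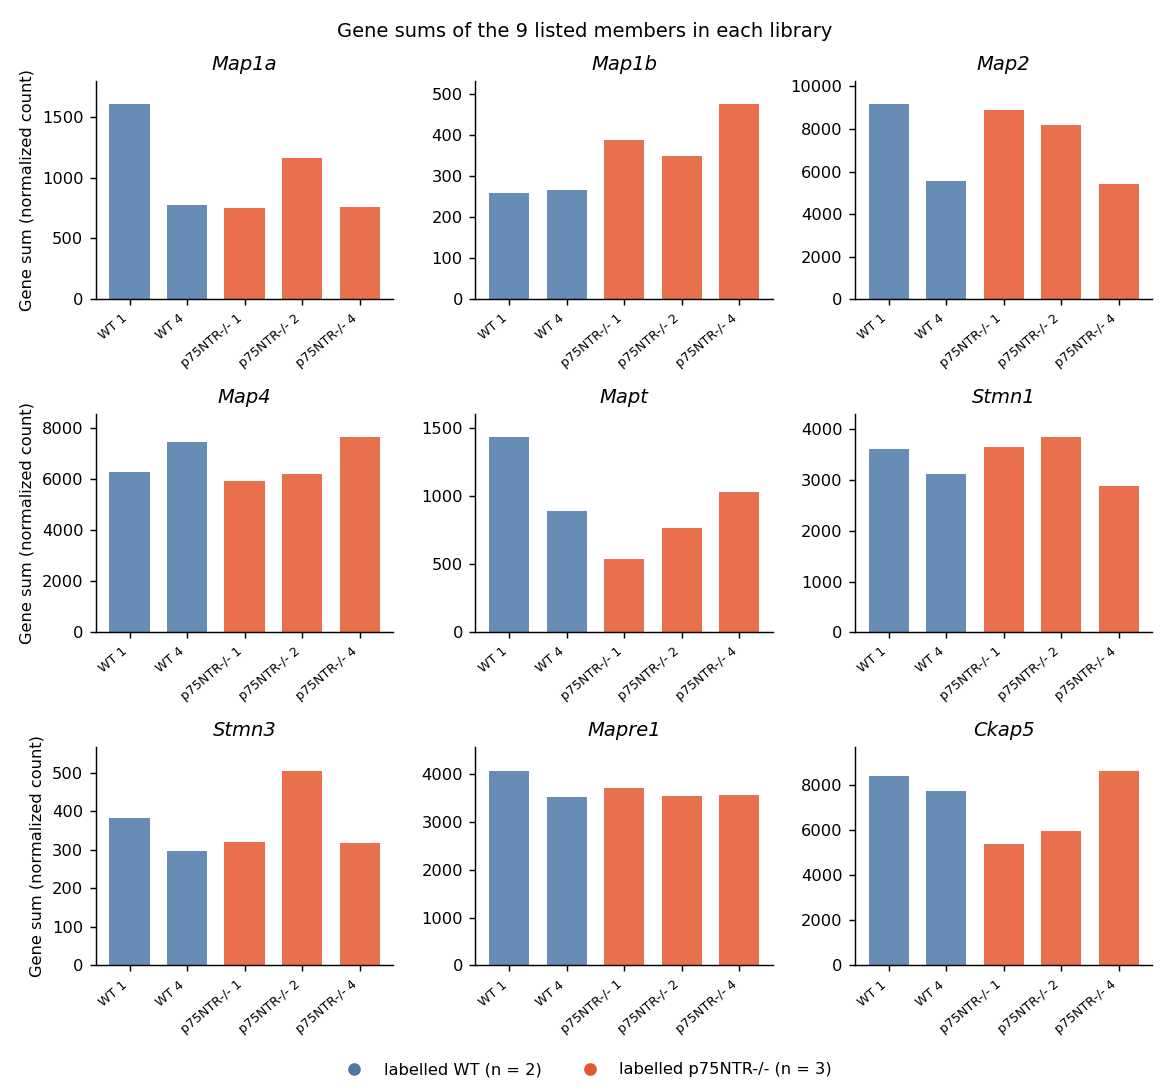
Gene sums (normalized counts, linear axes from 0) of the 9 listed members, 1 bar per library, blue for libraries labelled WT and red for those labelled p75NTR-/-. In Map1b alone do all 3 red bars exceed both blue bars, and in Map2, Stmn1 and Stmn3 both bars numbered 4 are lowest.

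**Figure D4:**
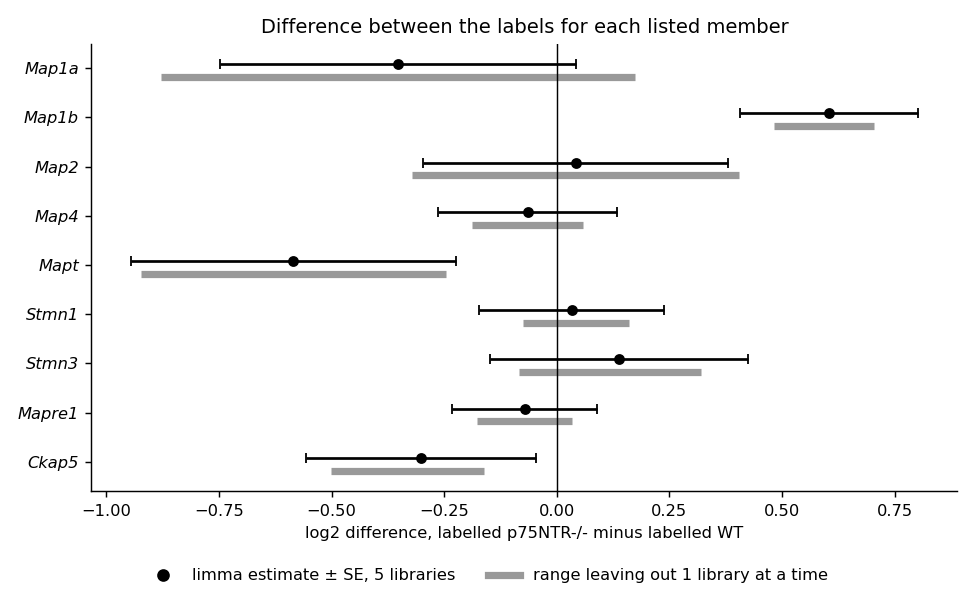
Log2 difference of the gene sums, labelled p75NTR-/- minus labelled WT, with the limma estimate ± SE over the 5 libraries (points) and the range when 1 library at a time is left out (grey bars). The grey bar is clear of 0 for Map1b (0.48 to 0.70), Mapt (-0.92 to -0.25) and Ckap5 (-0.50 to -0.16) and crosses 0 for the other 6 members.

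Among single transcripts, limma called 3 of 22227 (0.0135%), none of a member. edgeR called 0 (534 at an unadjusted p under 0.05) and DESeq2 28 transcripts, none of a member. The adjusted p of Ckap5-203 was 0.0146 in DESeq2, but its mean was under 50, and it was 0.290 in limma and 1.00 in edgeR. At an unadjusted p under 0.05 in limma there were 3 of the 31 member transcripts, Map1b-201, Map4-212 and Ckap5-203, against 3.14% of all transcripts. In 4 of the 31 the groups did not overlap, against 16.6% of all transcripts. These were Map1b-201, Map4-212 and Ckap5-203, higher in the libraries labelled p75NTR-/-, and Ckap5-201, lower. Map4-212 is a partial model with 9 to 17 counts a library.

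Usage asks whether a transcript differs between the labels by another amount than the other listed transcripts of its gene. Of 27 member transcripts in 5 genes, diffSplice called 1, against 127 of 15022 (0.845%) over all genes. It was Ckap5-203. Both libraries labelled WT held 0 counts of it. By counting error alone this allows a share of up to 0.0350% and 0.0403% of the Ckap5 counts. This limit does not cover the assignment of reads to models. In the libraries labelled p75NTR-/- Ckap5-203 had 22, 64 and 21 counts, or 0.402%, 1.28% and 0.256%. The adjusted p for its usage was 0.047 in limma diffSplice, and 0.000679 to 0.341 over the alternatives. Without WT 1, WT 4, p75NTR-/- 1 or p75NTR-/- 2 the adjusted p was 0.248, 0.224, 0.144 and 0.192, and without p75NTR-/- 4 it was 0.000679. The share itself gave p = 0.2 in a two-sided exact permutation test.

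Ckap5-201 went the other way, from 86 and 50 counts under the label WT to 0, 0 and 26 under the label p75NTR-/-. Its usage did not pass (adjusted p = 0.076 in limma diffSplice). Together these models held at most 1.28% of the Ckap5 counts in any library, and Ckap5-204 held 98.7% to 99.6%. Neither has a base outside the other listed models, so reads over junctions decide between them. Ckap5-203 lacks exon 36 of Ckap5-204, a coding exon of 180 bases at chr2:91606246-91606425 (GRCm38, plus strand, GENCODE vM21), which is the sequence this division turns on.
Ckap5 exon 36: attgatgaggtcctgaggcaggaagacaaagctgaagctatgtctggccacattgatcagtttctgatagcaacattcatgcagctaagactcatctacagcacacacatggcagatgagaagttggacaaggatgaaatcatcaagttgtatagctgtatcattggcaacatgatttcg
Ckap5-201 keeps that exon and lacks instead 63 coding bases at chr2:91619688-91619750.

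Markers of other cell types and of the cell cycle also differed between these libraries. Of 9 astrocyte markers 8 were listed, all 8 with a lower estimate in the libraries labelled p75NTR-/-, and 0 called. Their summed level was 36661 to 44144 normalized counts in the libraries labelled WT and 23474 to 40010 in those labelled p75NTR-/-. Gfap, the defining intermediate filament, had 241 and 680 normalized counts, and 11.9, 1.20 and 746. Of 17 neuronal markers 11 were listed, with a sum of 6201 to 7180 and 4315 to 6168 normalized counts. All 12 proliferation markers had a higher estimate in the libraries labelled p75NTR-/-, 0 called, with sums of 22123 to 33401 and 32115 to 44963. Of 10 oligodendrocyte-lineage markers 6 were listed, with sums of 4461 to 8576 and 4705 to 7690. Of 14 markers of other cells 3 were listed, Kdr, Col1a1 and Acta2, with sums of 123 to 128 and 126 to 323.

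The order of the libraries by Mapt was the same as by the astrocyte sum, from WT 1 through p75NTR-/- 4, WT 4 and p75NTR-/- 2 to p75NTR-/- 1. Single astrocyte markers did not all keep this order. Aldh1l1, which weighed most in the sum, was highest in p75NTR-/- 4 (25550 normalized counts, against 23090 in WT 1). Gfap and Sox9 were also highest in p75NTR-/- 4 and Aqp4 in WT 4, while S100b, Aldoc, Slc1a2 and Gja1 were highest in WT 1. Ckap5 was low in p75NTR-/- 1 and 2, the libraries with the lowest astrocyte and neuronal sums and the highest proliferation sums. The part of these markers in the levels of the members was not tested. In bulk RNA, fewer cells of a type and less RNA per cell cannot be told apart.

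**Figure D5:**
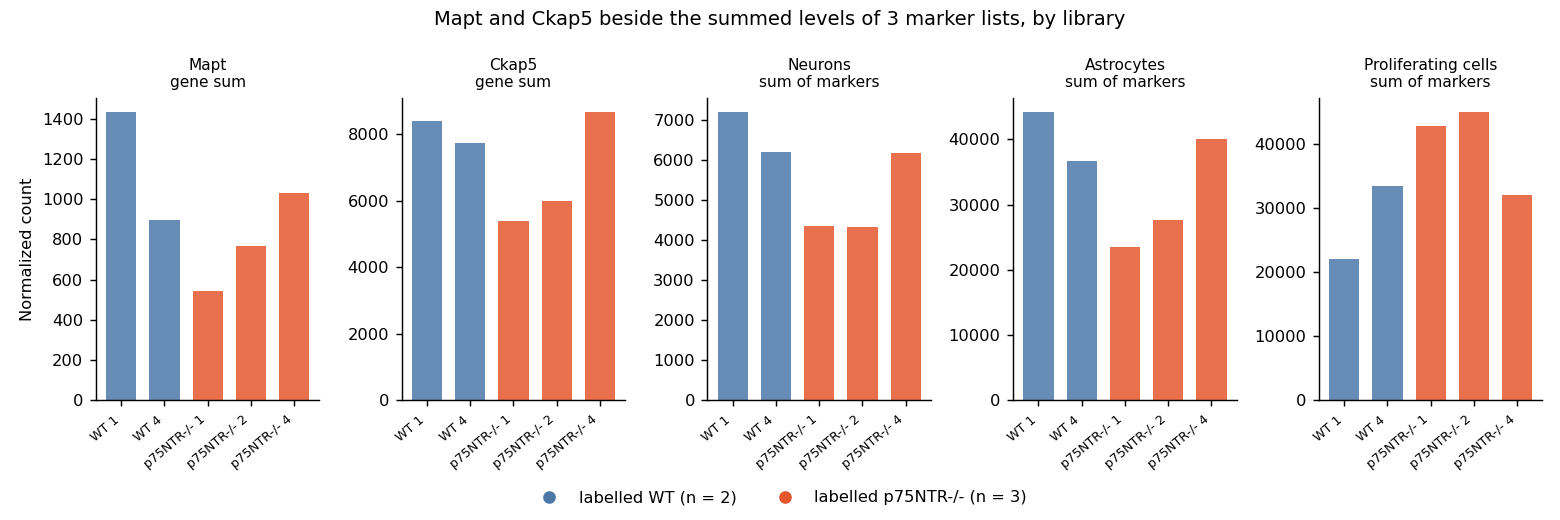
Normalized counts by library (linear axes from 0) of the Mapt and Ckap5 gene sums beside the summed levels of 11 neuronal, 8 astrocyte and 12 proliferation markers. In p75NTR-/- 1 and 2 the Mapt, Ckap5, neuronal and astrocyte bars are the lowest and the proliferation bars the highest.

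The other genes of microtubule regulation gave no call either. Of 35 other structural and side-binding MAPs 32 were listed, 17 higher and 15 lower in the libraries labelled p75NTR-/-, with a median log2 difference of 0.05 beside 0.00 over all gene sums. The 3 with the lowest p did not pass (limma adjusted p = 0.934 for each). Tppp3, a tubulin polymerization-promoting protein, had 15.7 and 19.8 normalized counts, and 7.92, 6.01 and 7.40. Mid1, a microtubule-bound ubiquitin ligase, had 256 and 328, and 570, 466 and 444. Map10, a microtubule-stabilizing protein, had 15.7 and 30.2, and 6.93, 9.61 and 10.6. In Tppp3 and Map10 the means lay under 50. The labels did not overlap in these 3 genes, which were picked for a low p, and over the list they did not overlap in 3 genes that were higher and 3 that were lower, of 32, against 15.0% of all gene sums.

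Of 30 other plus-end and minus-end proteins all were listed, 13 higher and 17 lower, with a median log2 difference of -0.09. The lowest p belonged to Clip3, Gtse1 and Nav1, none of which passed (limma adjusted p = 0.934 for each). Clip3, a cytoplasmic linker protein, had 2375 and 2283 normalized counts, and 915, 1078 and 2304, so that p75NTR-/- 4 lay with the libraries labelled WT. Gtse1, a plus-end protein of dividing cells, had 537 and 941, and 1170, 1219 and 860. Nav1, a neuron navigator, had 768 and 775, and 864, 909 and 959. Over the list, the labels did not overlap in 1 gene that was higher, Nav1, and 1 that was lower, of 30. Over all gene sums this share was 15.0%.

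Of 16 severing and depolymerizing proteins 14 were listed, 9 higher and 5 lower, with a median log2 difference of 0.16, and 0 called. The lowest p belonged to the kinesins Kif19a, Kif18b and Kif24 (limma adjusted p = 0.934 for each). Kif19a, which shortens ciliary microtubules, had 66.7 and 23.9 normalized counts, and 5.94, 26.4 and 12.7. Kif18b, which shortens astral microtubules, had 388 and 634, and 750, 905 and 600. Kif24, a kinesin of centrioles and cilia, had 99.1 and 77.0, and 155, 201 and 87.7. In these 3 genes the labels overlapped. Over the list they did not overlap in 1 gene of 14, against 15.0% of all gene sums.

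Of 28 kinases and phosphatases that act on MAPs or stathmins 27 were listed, 10 higher and 17 lower, with a median log2 difference of -0.03, and 0 called. The lowest p belonged to Camk4, Gsk3b and Cdk1 (limma adjusted p = 0.934 for each). Camk4, a kinase of stathmin, had 65.8 and 60.3 normalized counts, and 124, 97.3 and 72.9. Gsk3b, a kinase of tau and MAP1B, had 1413 and 1111, and 921, 1012 and 1002. Cdk1, the mitotic kinase, is also on the proliferation list and had 1805 and 2918, and 3777, 3530 and 2790. In Camk4 every library labelled p75NTR-/- was above those labelled WT, and in Gsk3b every one was below. Over the list, the labels did not overlap in 2 genes that were higher and 3 that were lower, of 27, against 15.0% of all gene sums.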

How the data were processed

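RNA was measured by strand-specific RNA-Seq in 5 libraries. Per the labels and the methods, the authors quantified reads with Salmon 0.10.2 on GRCm38.p6 and used DESeq2 1.22.0 in R 3.6.1 for normalization. The methods name estimates per gene, whereas each deposited line is a transcript. For every library the deposited signal holds counts over the DESeq2 size factor, with 0.5 added. The authors' TPM columns, treated as a score, served for levels per coding length. The authors' mean, fold change and p columns served nowhere here, and no per-sample column stayed unused.

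After 303 repeated lines were dropped and 0.5 was subtracted, 100% of low values were whole multiples (within 0.1) of a step of 0.981 to 1.20, which gave the counts back. Gene sums per symbol and transcripts were compared with limma 3.58.1 (lmFit and eBayes on log2(normalized count + 1), Benjamini-Hochberg over all rows, no filter or covariate) and usage with diffSplice. A zero count was given an upper limit of 3 counts, and intervals are 95% Wilson intervals. All 31 member transcripts were matched by identifier to GENCODE vM21.

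The members and lists were chosen with earlier results of these data known. Named are all members, their transcripts with at least 5% of the gene sum under either label or called, the 3 genes of lowest p in each list, the 3 most like the most variable member, and Ngfr. Ckap5-201, Map2-218, Map4-205, Map4-206 and Map4-212 were named after their values were seen. Alternatives were other pseudocounts, a mean of 50 before the fit, no minimum mean, edgeR 4.0.16, DESeq2 1.42.0, TPM, a block for the replicate number and leaving out libraries. The fits were tested on simulated data.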

Additional observations from a re-analysis of the deposited data

How the results depend on the processing

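The number of gene sums called (1) was 1 with pseudocounts of 0.5 and 10, a mean of 50 before the fit, no minimum mean and TPM. It was 0 with edgeR (260 at an unadjusted p under 0.05), 7 with DESeq2 and 0 to 1 when 1 library was left out. The number of transcripts called (3) was 4 with a pseudocount of 0.5, 0 with a pseudocount of 10 (764 at an unadjusted p under 0.05), 0 with edgeR (534), 28 with DESeq2, 31 without a minimum mean and 0 to 0 when 1 library was left out (581 to 2185). The number of usage calls (127) was 139 with a pseudocount of 0.5, 33 with one of 10, 14 with a mean of 50 before the fit, 82 genes with the gene-level Simes p and 148 to 288 when 1 library was left out. Where 1 library labelled WT remained, it was assumed to vary like the other group.

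The labels share the replicate numbers 1 and 4, and nothing says that a number pairs cultures. Deviations from the label means correlated across 10786 genes at 0.26 between the libraries numbered 1 and at 0.48 between those numbered 4, but WT 1 correlated at 0.48 with p75NTR-/- 2. The deviations of WT 4 are by construction the reverse of those of WT 1. These correlations are therefore tied to each other and cannot decide whether numbers pair. With the replicate number as a block, 0 gene sums (240 at an unadjusted p under 0.05), 0 transcripts (678) and 54 usages were called, and the usage of Ckap5-203 had an adjusted p of 0.341 in limma diffSplice. With a pseudocount of 10 and no block its adjusted p was 0.0887. Under the block the log2 difference was -0.039 for Map2, -0.047 for Stmn1 and Stmn1-201, -0.084 for Stmn3 and Stmn3-201 and 0.024 for Map4-201, each with the other sign than without it. The same values came from leaving out p75NTR-/- 2, the only library with its number. The block thus took that library out of the estimates and was not a separate check on them. Without both libraries numbered 4, a choice made after seeing the data, 0 gene sums (3266 at an unadjusted p under 0.05), 0 transcripts (3282) and 546 usages were called, and the log2 difference was -0.10 for Map2, -0.0078 for Map2-219 and 0.095 for Map4-215. It was then -1.15 for Mapt, -0.56 for Ckap5 and -0.78 for Map1a (limma adjusted p = 0.175, 0.181 and 0.296), against -0.58, -0.30 and -0.35 with all 5 libraries.

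No member gene sum was called under any of these settings, and their median log2 difference lay between -0.18 and 0.14 when 1 library was left out. Of 117 member values, 101 kept their direction and 16 changed it. When 1 library was left out, the log2 difference ranged from -0.88 to 0.17 for Map1a, -0.32 to 0.40 for Map2, -0.19 to 0.058 for Map4, -0.075 to 0.16 for Stmn1 and Stmn1-201, -0.084 to 0.32 for Stmn3 and Stmn3-201, and -0.18 to 0.034 for Mapre1 and Mapre1-201. For transcripts it ranged from -0.76 to 0.28 for Map1a-201, -0.73 to 0.59 for Map2-204, -0.12 to 0.30 for Map2-206, -0.21 to 0.47 for Map2-219, -0.26 to 0.10 for Map4-201, -0.17 to 0.011 for Map4-214, -0.19 to 0.074 for Map4-215 and -0.24 to 0.12 for Mapt-211. The cause of these changes was not tested. With 2 against 3 libraries, an exact permutation test of 1 gene cannot go below 0.1, and genes with few counts such as Ckap5-203 rest on 0 to 64 counts a library.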
